A study of Mus musculus with 10 samples.

Results

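Of the 11271 peaks called for Flag-tagged PRDM16 in mouse vascular fibroblasts, 1673 (14.8%) were shorter than 1000 bp and had their centre between 2000 bp upstream and 100 bp downstream of the nearest transcription start site (TSS). The TSSs were those of curated RefSeq transcripts of GRCm38.p6, and distance was signed along the gene's strand. These upstream and TSS peaks belonged to 1587 genes, 6.06% of the 26180 curated genes. The remaining peaks comprised 4520 short peaks with a centre up to 2000 bp downstream of a TSS, 829 peaks of 1000 bp or more, 4236 short peaks farther from any TSS, and 13 on unplaced sequences. Members nearest the limits had centres at −1996 and 100 bp and a length of 995 bp, and the closest peaks outside had centres at −2002 and 101 bp and a length of 1000 bp.

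The ChIP-Seq data were from primary wild-type fibroblasts carrying a lentivirus for Flag-tagged PRDM16 or an empty vector (48 h of infection, then puromycin at 2 μg/mL over 1 week), with 1 anti-Flag library of each. PRDM16 was thus expressed from a virus, and there was no replicate, so all peak values below are descriptions of 1 library and intervals cover counting error only. RNA-Seq was from thoracic aortas of 3 control mice (Prdm16 f/f) and 3 Prdm16SMKO mice, which were male Prdm16 f/f mice carrying SMMHC-CreERT2. The Cre is driven by the smooth muscle myosin heavy chain promoter and removes Prdm16 in smooth muscle cells, whereas other cells of the vessel keep the gene. The deletion was induced with tamoxifen at 75 mg/kg/day for 5 days from an age of 8 weeks, followed by 2 weeks without drug. Whether the 3 control mice received tamoxifen, and how old the mice were and at which hour the aortas were collected, are not given in the sources used here. The peaks and the RNA therefore came from different cells, and no RNA of the fibroblasts was analysed here.

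PRDM16 is a zinc finger protein of the PR domain family, best known for its part in brown fat identity, which acts with partners such as CtBP and PPARγ coactivators to activate some genes and repress others. The promoter of a gene is the stretch around and just upstream of its TSS, where general factors and sequence-specific factors meet. Many mammalian promoters lie in CpG islands, which are rich in G and C and keep the CpG dinucleotides that most of the genome has lost. GC boxes, bound by SP and KLF proteins, and CCAAT boxes, bound by NF-Y, are common promoter elements.

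The GRCm38 sequence around the summit is shown for peaks at genes that the results below turn on, each on the strand of the gene and 5′ to 3′. All stretches lie upstream of the TSS and outside every annotated exon, and capitals mark letters that match one of the motifs searched. Npas2 had a pair of peaks, and the stretch of the proximal one (chr1:39194063-39194183, +) holds none of the motifs. Stretches are also given at Nr4a1 (chr15:101266329-101266449, +), Irs2 (chr8:11009759-11009879, −, with a GC box), Tinagl1 (chr4:130175356-130175476, −, with a GC box), and Ccn3 (chr15:54745615-54745701, +, ending in a CA repeat). The distal peak of Cd44 (chr2:102903514-102903634, −) is a run of GACA repeats. Rbm39 (chr2:156180511-156180631, −) and Gpbp1 (chr13:111490346-111490466, −) had the highest fold enrichments.
Npas2 proximal: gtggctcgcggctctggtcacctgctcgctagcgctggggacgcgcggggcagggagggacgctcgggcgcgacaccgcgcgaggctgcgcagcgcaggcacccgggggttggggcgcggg
Nr4a1: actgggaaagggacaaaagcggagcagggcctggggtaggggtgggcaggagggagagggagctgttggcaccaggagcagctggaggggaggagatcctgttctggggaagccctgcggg
Irs2: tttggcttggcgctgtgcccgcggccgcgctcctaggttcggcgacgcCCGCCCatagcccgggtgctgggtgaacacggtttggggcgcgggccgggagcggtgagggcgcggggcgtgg
Tinagl1: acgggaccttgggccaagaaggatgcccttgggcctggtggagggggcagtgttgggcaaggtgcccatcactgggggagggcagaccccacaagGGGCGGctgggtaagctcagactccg
Ccn3: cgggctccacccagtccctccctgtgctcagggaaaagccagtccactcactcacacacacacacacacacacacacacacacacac
Cd44 distal: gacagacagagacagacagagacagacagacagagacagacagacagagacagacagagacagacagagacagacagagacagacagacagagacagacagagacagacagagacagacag
Rbm39: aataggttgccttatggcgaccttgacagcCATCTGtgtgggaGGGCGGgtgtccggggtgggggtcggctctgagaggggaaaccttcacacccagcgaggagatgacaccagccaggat
Gpbp1: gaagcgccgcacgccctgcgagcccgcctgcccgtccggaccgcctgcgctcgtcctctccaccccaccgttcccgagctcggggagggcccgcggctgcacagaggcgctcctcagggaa

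The RefSeq sequences differ in kind. The proximal Npas2 stretch holds 19 CpG in 121 bases at 79.3% GC, that of Irs2 holds 18 at 76.0%, and that of Gpbp1 holds 16 at 76.0%. Nr4a1 had 2 CpG at 66.1% GC, Ccn3 1 in 87 bases at 58.6%, and the distal Cd44 stretch 0 at 50.4%.

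Within the window, peaks were concentrated at the TSS. Centres of 721 peaks (43.1%) lay within 100 bp of the TSS, 589 (35.2%) lay between −500 and −100 bp, 210 (12.6%) between −1000 and −500 bp, and 153 (9.15%) between −2000 and −1000 bp. The centre was upstream of the TSS in 74.3% (95% exact binomial interval, 72.1% to 76.4%), and 55.3% of the peaks covered the TSS itself. The densest 100-bp bins of the whole distribution lay outside the window, on the downstream side, as the plot of peak positions shows.

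**Figure D1:**
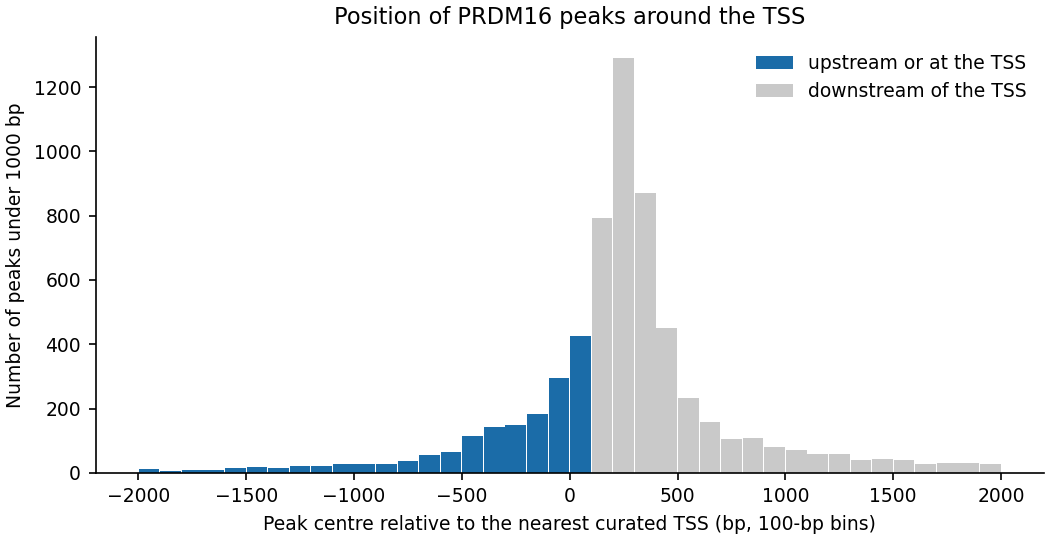
Number of PRDM16 peaks under 1000 bp (y axis) in 100-bp bins of the distance from the peak centre to the nearest curated TSS (x axis, bp, negative upstream). The 1673 upstream and TSS peaks are in blue and the 4520 downstream peaks in grey, and counts in the blue bins fall with distance upstream.

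None of the 1673 overlapped a peak of the vector library, whose list held 67 peaks and had 0 in the same window. A list that short left little room for overlap, so the count of 0 says little about background at the members. Peak strength was moderate. Fold enrichment, the ratio of fragment pileup at the summit to the local background after 1 is added to each, had a median of 5.27 and ranged from 2.38 to 19.7, and −log10 q had a median of 5.48. The q value was above 0.01 for 59 members (3.53%). Downstream peaks had a median fold enrichment of 5.27 too, peaks of 1000 bp or more 6.82, and peaks away from a TSS 4.92. Members at the TSS (within 100 bp) were longer, with a median of 500 bp, than members between −1000 and −500 bp, with a median of 363 bp. In 62.6% of the members the fold value was a whole multiple of 0.352 (within 0.01 of a multiple), and these multiples less 1, the number of fragments at the summit if the background was the genome-wide value, ranged from 8 to 55 with a median of 15. At that background, 1 fragment more moved the fold enrichment by 0.352.

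The strongest peaks were at Rbm39, which encodes a splicing factor, with a fold enrichment of 19.7 at −401 bp, and at Gpbp1, encoding a GC-rich promoter binding protein, with 18.3 at −376 bp. They were followed by the peaks of 6430571L13Rik (16.7), Micos13 (16.2), a component of the mitochondrial cristae organizing complex, and Ipo5 (14.8), a nuclear import receptor. Ankrd40 (14.7), Epha3 (14.1), an ephrin receptor, Meis3 (13.6), a homeobox factor, Vegfc (13.5), a lymphatic growth factor, and Anks1b (13.01) completed the 10 highest. Of these genes, 6430571L13Rik and Anks1b were below the level tested in the aortas, and the other 8 did not pass the test between Prdm16SMKO and control aortas (limma, adjusted P 0.505 to 0.942).

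Most genes had a single member, as 1510 had 1 and 73 had 2. Plec, which encodes the cytoskeletal linker plectin and has many alternative first exons, had 7, with centres from −1498 to −29 bp of its various TSSs and fold enrichments from 3.82 to 8.07. Nfix, a nuclear factor I family member, had 4, and Dab2ip, a RAS GTPase-activating protein, and Lrrfip1 had 3 each. By chromosome the share of genes with a member ranged from 1.51% on the X (17 of 1126) to 9.87% on chromosome 15 (95 of 963), leaving out the Y, which had 0 members at 91 genes. Among genes with a member, 27.6% (438 of 1587) also had a downstream or wide promoter peak, against 17.8% of the curated genes without a member.

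Base composition changed with distance. A window of 201 bp centred on the summit was called CpG-rich when its GC content was over 50% and its observed-to-expected CpG ratio over 0.6. Of the members, 70.9% (68.6% to 73.1%) were CpG-rich, with a median GC content of 68.7%. The share was 83.5% within 100 bp of the TSS, 69.4% between −500 and −100 bp, 52.4% between −1000 and −500 bp, and 42.5% between −2000 and −1000 bp. For comparison, 78.7% of downstream peaks and 12.96% of peaks away from a TSS were CpG-rich. So were 31.2% of windows centred 193 bp upstream of all curated coding TSSs, the median position of the member summits. This fixed position served for every comparison with coding TSS windows, so the groups by distance were not matched to it. The 1186 CpG-rich members were longer than the 487 others, with medians of 442 and 372 bp, had median fold enrichments of 5.27 and 4.92, and had median centres 93 and 378 bp upstream. Among the 558 members with the highest fold enrichment 76.7% were CpG-rich, against 68.3% of the 558 with the lowest.

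Motif letters followed composition in part. The GC box (GGGCGG, both strands) was found in 49.2% of the member windows, 46.8% of the downstream and 13.1% of the other peaks, and 25.8% of coding TSS windows. Its share fell from 59.8% within 100 bp of the TSS to 24.8% between −2000 and −1000 bp. The CCAAT box (CCAAT) showed the opposite order, with 6.38% at the TSS and 15.0% in the most distal members, and 8.91% overall against 25.5% of coding TSS windows. Among CpG-rich windows alone, the GC box was found in 59.7% of members and 55.6% of coding TSS windows, and the CCAAT box in 5.40% and 22.8%. Those member windows had a median GC content of 72.1% and those of coding TSSs 64.7%, and the part of base content in the motif shares was not tested.

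**Figure D2:**
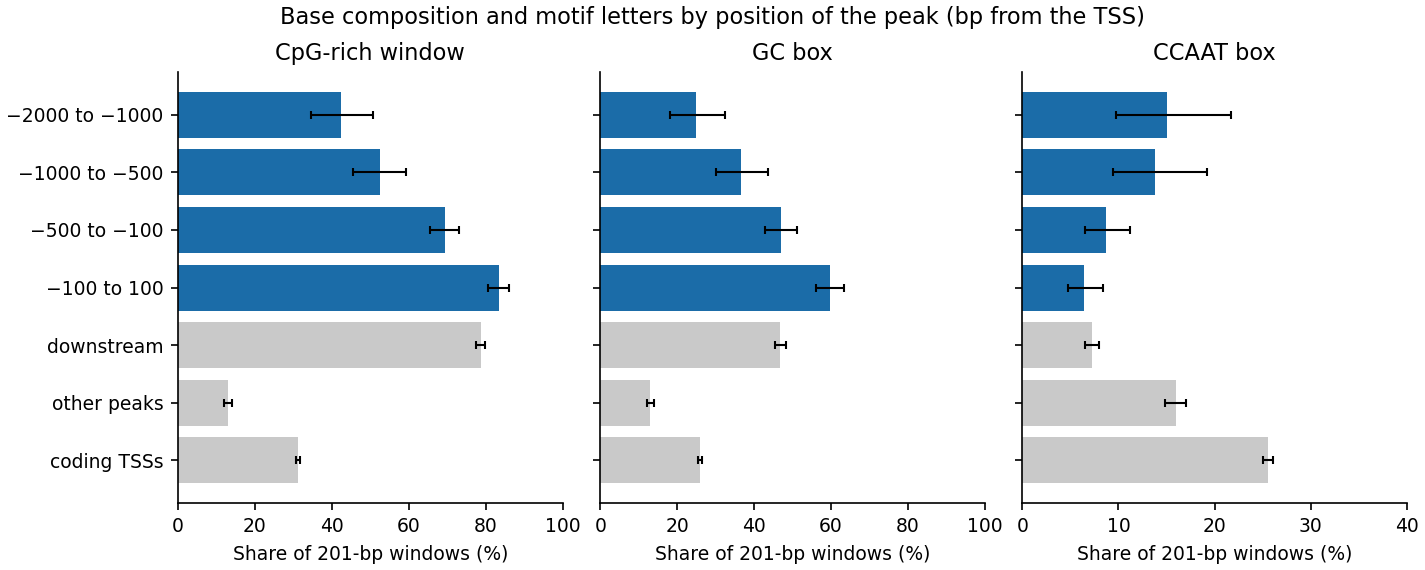
Share of 201-bp windows (x axis, %) that are CpG-rich, hold the GC box, or hold the CCAAT box. Members are shown by distance (blue), beside downstream peaks, other peaks, and windows 193 bp upstream of all coding TSSs (grey). Bars are shares and error bars 95% exact binomial intervals. CpG-rich and GC box shares fall with distance upstream, from 83.5% to 42.5% and from 59.8% to 24.8%, and all member bars of the CCAAT box lie below that of the coding TSSs.

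Over all windows, other promoter letters went either way against coding TSS windows. The TATA box (TATAAA) was in 1.02% against 8.35%, the ETS letters (CCGGAAGT) in 0.837% against 1.32%, and the NRF1 letters (GCGCATGC) in 0.598% against 1.29%. The YY1 letters (AAGATGGCG) were in 0.837% against 0.527%. The E-box bound by clock factors (CACGTG) was in 4.78% against 4.27%, and in 7.84% of the most distal members. Among CpG-rich windows alone, the YY1 letters were in 1.18% of members and 1.25% of coding TSS windows, and the E-box in 5.14% and 6.92%. There the TATA box was in 1.01% against 2.06%, the ETS letters in 1.01% against 3.03%, and the NRF1 letters in 0.590% against 2.87%. The authors report motifs of MECOM, HAND2, and GATA factors as enriched over all their peaks. The exact letters searched here are not the motifs of that search. AGATAA for GATA proteins and CAGATG for HAND proteins were in 2.75% and 8.19% of members. The shares were 7.37% and 17.6% in the peaks away from a TSS, and 7.80% and 10.7% in coding TSS windows. Of the MECOM letters, AGATAAGAT was found in 0 and GAAGATGAG in 0.418% of member windows, against 0.146% and 0.304% of coding TSS windows. AP-1 letters (TGANTCA) were in 1.66% of members at the TSS and in 5.24% of those between −1000 and −500 bp.

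Neighbouring annotation differed along the window. Of the 1673 members, 1482 (88.6%) were at coding transcripts, and 37 of the rest were at the annotated start of a microRNA gene, which is that of the hairpin and not of its primary transcript. A curated TSS of the opposite strand lay within 1000 bp, in divergent orientation, for 6.16% of the members. Among members within 100 bp of the TSS the share was 11.2%, and among all curated TSSs 11.0%. Because each peak was placed at its nearest TSS, members more than 500 bp upstream could have no divergent TSS within 1000 bp. The same rule limits the share of the other upstream members, so these shares cannot be compared with that of all TSSs. Of the 950 members more than 100 bp upstream, 66.0% lay outside every curated transcript, 20.1% inside another transcript of the same gene, and 15.1% inside a transcript of another gene.

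Gene lists differed in how many of their members carried a peak upstream or at the TSS. Immediate-early genes, which are induced within minutes of a stimulus, had the highest share of the lists examined, with 10 of 24 (41.7%, 22.1% to 63.4%): Atf3, Dusp1, Egr2, Egr3, Fos, Fosl2, Jun, Klf4, Nr4a1, and Nr4a2. Core clock genes had 7 of 23 (30.4%), among them Bhlhe40, Csnk1d, Csnk1e, Nfil3, Npas2, and Rora. Known partners of PRDM16 had 4 of 16 (Ctbp2, Ppargc1b, Skil, and Zfp516), the PRDM family 3 of 15 (Prdm1, Prdm4, and Prdm6), Hox genes 6 of 39, and extracellular matrix genes 5 of 32 (Col1a2, Emilin1, Loxl2, Mfap5, and Postn). Zinc finger genes of the Zfp series had 44 of 395 (11.1%, 8.21% to 14.7%). A downstream or wide promoter peak alone was found at a further 10 immediate-early, 8 core clock, and 8 partner genes. The same held for 5 PRDM family, 12 Hox, 11 extracellular matrix, and 87 Zfp genes. Any promoter peak was thus present at 83.3% of immediate-early and 65.2% of core clock genes, against 22.8% of all curated genes. The high shares of these lists were not particular to peaks upstream or at the TSS.

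Lists of housekeeping genes were at or under the share of all curated genes. Cytosolic ribosomal proteins had 2 of 85, the respiratory chain 3 of 84, and tRNA synthetases and the proteasome 0 of 37 and 0 of 43, counts of 0 that allow shares of up to 8.11% and 6.98%. Histone genes had 2 of 104 with a member, although 38 had a downstream or wide promoter peak alone. Of the olfactory receptors, 0 of 1125 had a member, and 6 of them reached the level tested in the aortas. Vasoactive receptors had 0 of 28 upstream or at the TSS (up to 10.7% allowed) and 9 with only a downstream or wide peak, and of the smooth muscle contractile genes Cald1 (caldesmon) and Tpm1 (tropomyosin) had a member, 2 of 16.

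**Figure D3:**
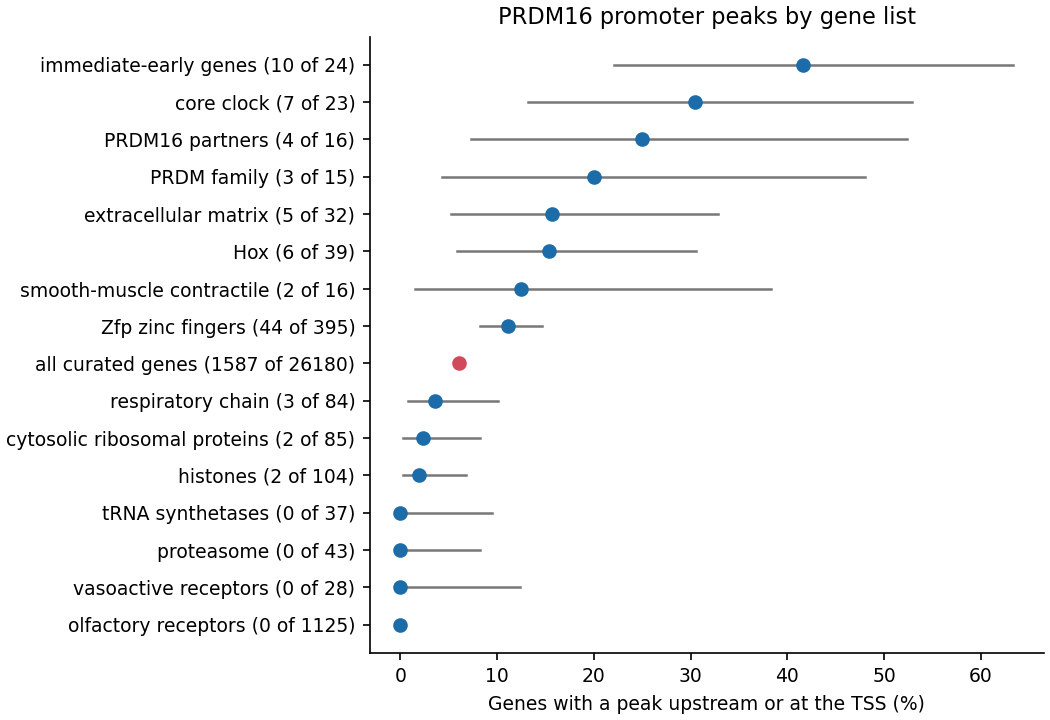
Share of the genes of each list with a PRDM16 peak upstream or at the TSS (x axis, %), with the counts beside the list names. Points are shares, lines 95% exact binomial intervals for counting error, and the red point all curated genes (6.06%). Immediate-early genes lie highest at 41.7%, and 4 lists are at 0.

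Several of the immediate-early peaks were far upstream. Those of Fos, Egr3, and Atf3 were centred at −1579, −1756, and −1526 bp, with fold enrichments of 7.03, 6.51, and 5.98. Jun and Fosl2 had a pair of members each, at −625 and −1434 bp for Jun and at −1393 and −152 bp for Fosl2. In the clock list, Bhlhe40, a transcriptional repressor, had its peak at −1319 bp (fold enrichment 5.98), Npas2, a partner of BMAL1, at −1032 and −213 bp (5.98 and 5.04), and Rora, a nuclear receptor that activates Bmal1, at 12 bp (10.9).

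In the aortas, the genes with a member were mostly transcribed. Of the 1587 genes, 1561 were matched to the deposited TPM, a level scaled for transcript length and library size. Their median over genes of the mean control TPM was 10.4, against 13.1 for genes with only a downstream or wide promoter peak and 0.107 for curated genes without a promoter peak. By aorta, the median ranged from 9.66 to 11.3 TPM in control and from 8.99 to 10.3 TPM in Prdm16SMKO mice, so that the groups overlapped. A mean control TPM of at least 1 was reached by 78.5% of the genes with a member. Medians were 9.42 TPM for genes with a peak within 100 bp of the TSS and 14.4 TPM for those with a peak between −1000 and −500 bp. The median was 10.6 TPM with a CpG-rich member and 10.2 TPM without.

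Few genes with a member passed the test between Prdm16SMKO and control aortas. With limma on log2(TPM + 0.1) and Benjamini-Hochberg adjustment over 15668 genes at a threshold of 0.05, 4 of the 1287 tested genes with a member were higher in Prdm16SMKO aortas (0.311%) and 13 were lower (1.01%). Over all genes tested the shares were 0.389% and 0.683%. The groups did not overlap for 64 genes with a member that were higher (4.97%) and 251 that were lower (19.5%), against 4.08% and 14.9% of all genes tested. The median log2 fold change was −0.13 for genes with a member and −0.12 for all genes tested. With values scaled by the median ratio these medians were −0.0058 and 0.0046, and the calls became 16 higher and 26 lower (1.24% and 2.02%, against 1.28% and 1.36% of all genes). These shares are near the background. The authors' own list of changed genes with a PRDM16 promoter peak is longer. It holds every gene with a member called here except Arhgef19, each in the same direction. It also holds Csnk1e, Zfp516, Prdm6, Jun, Atf3, Fosl2, and Nr4a2, which did not pass here. Its promoter peaks were not limited to the members, and its expression test is not named in the sources used here.

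By the adjusted threshold, the most distal members had the highest share of called genes, but other measures did not all keep this order. Each gene was placed by its member of highest fold enrichment. Among 102 tested genes with a member between −2000 and −1000 bp, 2 were higher and 4 lower, whereas 1 and 2 of 162, 0 and 3 of 452, and 1 and 4 of 571 were higher and lower in the nearer groups. At an unadjusted P under 0.05, limma gave 8 higher and 16 lower of the 102 distal genes, and 5 and 26 of the 162. The group at −500 to −100 bp had 13 and 51, where 0 higher genes passed the adjusted threshold. The group at the TSS had 18 and 64. Lower without overlap between control and Prdm16SMKO aortas were 16.7% of the distal genes. The nearer groups had 22.8%, 20.4%, and 18.4%, and all genes tested 14.9%. Higher without overlap were 9.80%, against 4.94%, 4.42%, and 4.55%, and 4.08% of all genes tested. Of the genes with a CpG-rich member, 3 of 940 were higher and 4 lower, and of those with another member 1 of 347 was higher and 9 lower. Over all genes tested, 0.389% were higher and 0.683% lower. Of the distal genes called, Cd44 and Npas2 also had a member nearer the TSS, and 1 higher and 3 lower genes had no other member. Cd44 was placed there by its peak in GACA repeats, with a fold enrichment of 6.05 against 5.27 for the nearer member. Cd44, Aebp1, and Dhrs3 had a downstream or wide promoter peak besides, as did Epas1, Tinagl1, Plxna4, and Arhgef19 among the other called genes. Neither difference between groups of genes was tested.

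**Figure D4:**
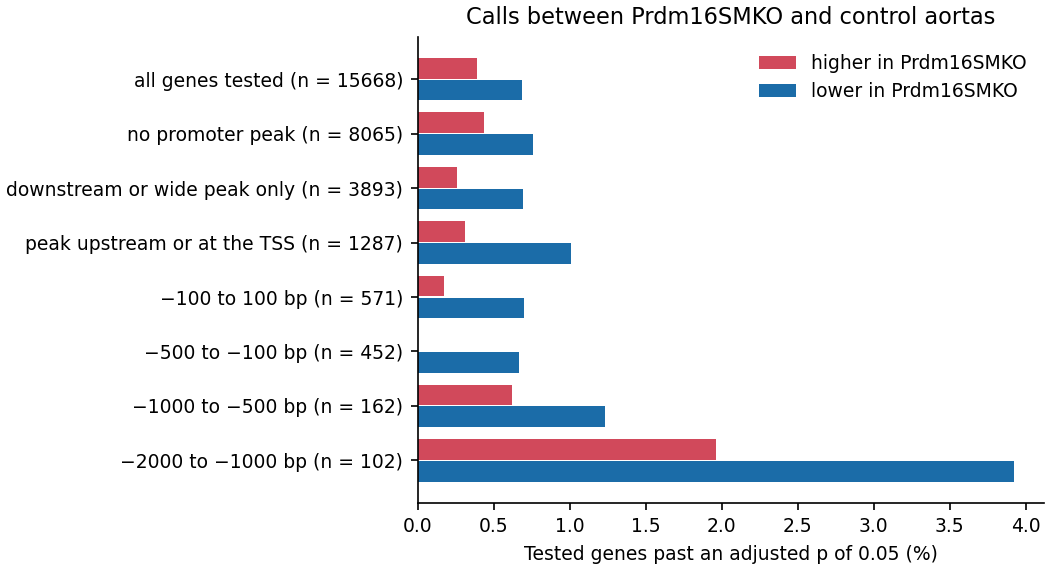
Share of tested genes past an adjusted P of 0.05 (x axis, %) that were higher (red) or lower (blue) in Prdm16SMKO than in control aortas, for all genes and by promoter peak and distance. The number of tested genes is beside each name. Genes with a peak between −2000 and −1000 bp reach 1.96% higher and 3.92% lower, from 2 and 4 genes.

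Prdm16 itself had 40.3, 47.6, and 56.1 TPM in control and 23.3, 23.4, and 33.3 TPM in Prdm16SMKO aortas, which did not overlap (adjusted P = 0.0725). The summed TPM of 6 smooth muscle markers was 20649 to 24074 in control and 13730 to 17733 in Prdm16SMKO aortas. Of the 6, 4 were lower without overlap between the groups, as were 14.9% of all genes tested. Summed markers of fibroblasts, endothelium, macrophages, brown adipocytes, skeletal muscle, and blood overlapped between the groups. Of these markers taken singly, 1 of 8 for fibroblasts and 1 of 8 for endothelium were lower without overlap. The part of the smooth muscle difference in the calls below was not tested, and fewer cells of a type cannot be told apart from less RNA per cell in whole aortas.

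Of the 4 higher genes, Kcnc4, a voltage-gated potassium channel with a peak at −614 bp, had 15.7, 16.1, and 22.7 TPM in control and 40.7, 56.8, and 64.0 TPM in Prdm16SMKO aortas (log2 fold change 1.56 ± 0.21 SE, limma adjusted P = 0.0096). Bhlhe40 had 10.6, 12.01, and 13.7 TPM in control and 24.7, 26.2, and 27.2 TPM in Prdm16SMKO aortas (1.11 ± 0.14, adjusted P = 0.0089). Cd44, the hyaluronan receptor, had members at −693 and −1928 bp and a mean of 23.2 ± 2.98 TPM in control and 41.9 ± 3.72 TPM in Prdm16SMKO aortas (SD, n = 3, limma adjusted P = 0.026). Epas1, encoding the hypoxia factor HIF-2α, had a peak at 13 bp and rose from 66.7 ± 3.20 to 103 ± 7.69 TPM (SD, n = 3, limma adjusted P = 0.038). In all 4 genes every Prdm16SMKO aorta was above every control aorta.

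Of the 13 lower genes, Arhgef19, a guanine nucleotide exchange factor with a peak at −57 bp, fell most on the log2 scale. It had 8.61, 10.1, and 14.9 TPM in control and 0.76, 1.3, and 1.95 TPM in Prdm16SMKO aortas (log2 fold change −3.03 ± 0.34 SE, limma adjusted P = 0.0052). Npas2 had 8.70, 9.37, and 12.9 TPM in control and 2.04, 2.41, and 3.42 TPM in Prdm16SMKO aortas (−1.94 ± 0.24, adjusted P = 0.0079). The lowest control aorta was above the highest Prdm16SMKO aorta for each. Nr4a1, an orphan nuclear receptor and immediate-early gene with a peak at −517 bp, had 85.1, 110, and 110 TPM in control and 29.9, 42.3, and 51.8 TPM in Prdm16SMKO aortas (−1.32 ± 0.20, adjusted P = 0.020). Irs2, an insulin receptor substrate with a peak at −629 bp, fell from 30.8 ± 3.31 to 14.6 ± 2.41 TPM, and Txlnb, a muscle-expressed taxilin with a peak at −1904 bp, from 5.997 ± 0.933 to 2.64 ± 0.520 TPM (SD, n = 3).

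Further genes of the vessel wall were in this group. Ccn3, a secreted matricellular protein with a peak at −236 bp, fell from 400 ± 40.7 to 206 ± 12.99 TPM (SD, n = 3, log2 fold change −0.95 ± 0.11 SE, limma adjusted P = 0.0074). Tinagl1, a matrix glycoprotein of vascular smooth muscle with a peak at −182 bp, fell from 240 ± 15.0 to 134 ± 7.52 TPM, and Aebp1, a collagen-binding secreted protein with a peak at −1937 bp, from 482 ± 66.6 to 287 ± 40.5 TPM. Limch1, an actomyosin regulator, Plxna4, a semaphorin coreceptor, Dhrs3, a retinal reductase, Fbxo30, a ubiquitin ligase subunit, and Ergic1, a protein of the secretory pathway, had log2 fold changes of −0.87, −0.85, −0.86, −0.82, and −0.67. Every Prdm16SMKO aorta was below every control aorta in all 13 genes. On chromosome 4, which carries Prdm16, Dhrs3 lies 9.42 Mb and Arhgef19 13.1 Mb from it, and Tinagl1 24.1 Mb. Dhrs3 and Arhgef19 were the 2 called among 18 tested genes with a member within 20 Mb of Prdm16. Over all 1287 tested genes with a member, 0.311% were called higher and 1.01% lower. The part of the position near Prdm16 in the calls of Dhrs3 and Arhgef19 was not tested.

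**Figure D5:**
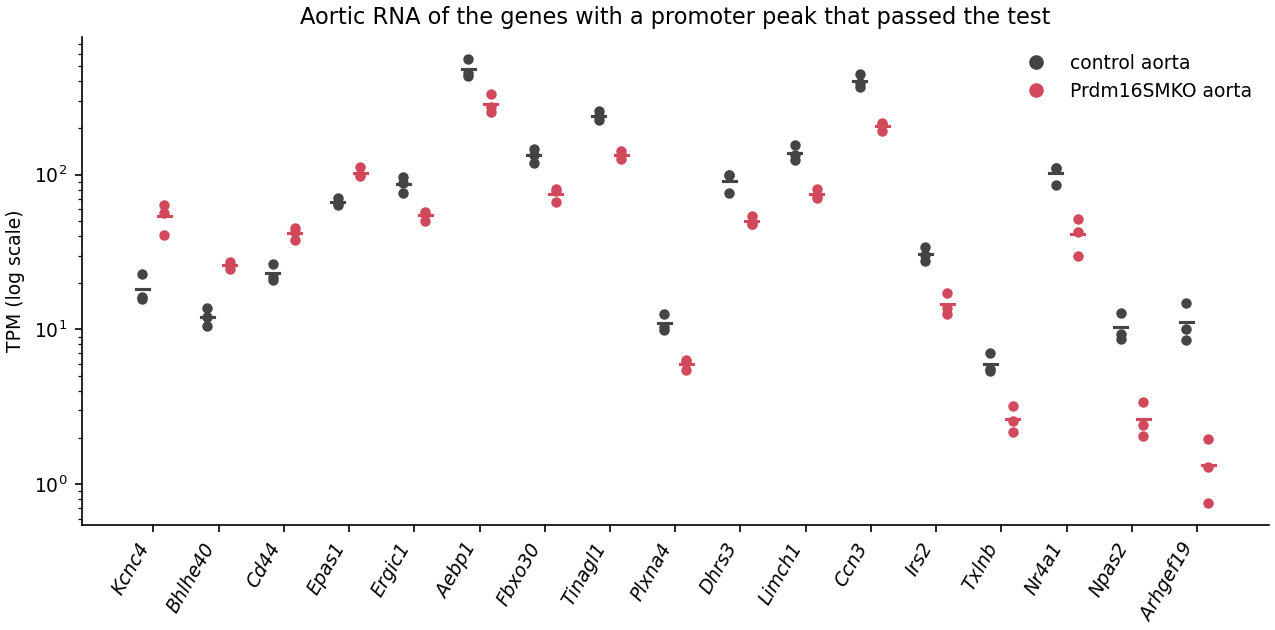
TPM (y axis, log scale) of the 17 genes with a PRDM16 peak upstream or at the TSS that passed the test, ordered by log2 fold change. Each point is 1 aorta, with control in grey and Prdm16SMKO in red, and lines are means of 3. The groups do not overlap for any of the 17 genes.

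The calls of Arhgef19, Bhlhe40, Ccn3, Kcnc4, Npas2, and Tinagl1 passed the threshold without each of the 6 aortas in turn, with adjusted P up to 0.0484. Those of Epas1, Ergic1, and Plxna4 were lost without any single aorta. Aebp1 and Txlnb passed only when Prdm16SMKO replicate 2 was the aorta left out. Cd44 was lost without Prdm16SMKO replicate 1 or 2 or control replicate 2 or 3, Dhrs3 without Prdm16SMKO replicate 1 or 3 or control replicate 1 or 2, and Fbxo30 without Prdm16SMKO replicate 1 or 3 or control replicate 1 or 3. Irs2 was lost without Prdm16SMKO replicate 1 or control replicate 1 or 2, Nr4a1 without control replicate 1 or 2, and Limch1 without control replicate 3, with adjusted P up to 0.0665, 0.0861, and 0.0546. No direction changed in these fits.

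In the core clock list as a whole, 3 of the 22 tested genes were higher and 1 lower, and Bhlhe40 and Npas2 were among them. The shares over all genes tested were 0.389% higher and 0.683% lower. Nfil3, Csnk1d, Csnk1e, and Rora did not pass the test. Nfil3 had 6.47, 6.84, and 9.78 TPM in control and 3.64, 4.65, and 6.44 TPM in Prdm16SMKO aortas (limma adjusted P = 0.319), without overlap. The values of Csnk1d, Csnk1e, and Rora overlapped between the groups, with log2 fold changes from −0.13 to 0.17. Among the 10 immediate-early genes with a member the median log2 fold change was −0.61, and Nr4a1 alone passed the test. Control replicate 1 held the highest values of Fos (75.9 against 16.7 and 27.6 TPM), Atf3 (106 against 48.9 and 52.5 TPM), and Jun (179 against 115 and 125 TPM). Without it, the log2 fold change moved from −0.74 to −0.13 for Fos, from −0.86 to −0.51 for Atf3, and from −0.65 to −0.46 for Jun. Egr2, a zinc finger factor, went the other way, with 1.28, 1.5, and 1.6 TPM in control and 1.65, 2.58, and 4.67 TPM in Prdm16SMKO aortas (limma adjusted P = 0.381), without overlap. Egr3 had 4.8, 5.2, and 5.51 TPM in control and 4.37, 6.92, and 7.43 TPM in Prdm16SMKO aortas, and Dusp1 102, 112, and 167 TPM and 58.1, 122, and 138 TPM, with overlap for each. Klf4 had 19.8, 22.1, and 26.3 TPM in control and 17.1, 19.0, and 19.1 TPM in Prdm16SMKO aortas (limma adjusted P = 0.444), without overlap. Fosl2 had 41.2, 42.0, and 52.8 TPM in control and 26.7, 29.8, and 34.8 TPM in Prdm16SMKO aortas (adjusted P = 0.137), and passed the test after median ratio scaling (0.0325) and quantile normalization (0.0471). Nr4a2 had 3.13 to 4.61 TPM in Prdm16SMKO and 6.72 to 8.02 TPM in control aortas (adjusted P = 0.0845).

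Members of the other lists that carried a peak did not pass the test. Cald1 had 2145 to 2726 TPM in control and 1979 to 2231 TPM in Prdm16SMKO aortas, and Tpm1 1639 to 1944 and 1321 to 1682 TPM, with overlap for each. Among PRDM16 partners, Ctbp2, a corepressor, Skil, a SMAD corepressor, Ppargc1b, a coactivator of nuclear receptors, and Zfp516, a factor of brown fat genes, had log2 fold changes from −0.39 to −0.00069 (limma adjusted P 0.469 to 0.999). Prdm6, a smooth muscle PRDM factor with a peak at −1743 bp, had 76.3, 76.8, and 107 TPM in control and 51.5, 66.9, and 72.1 TPM in Prdm16SMKO aortas (adjusted P = 0.340), without overlap. Prdm4 was level at 6.31 to 7.89 TPM and 6.15 to 7.88 TPM, and Prdm1 was under the level tested. The 5 extracellular matrix genes with a member had a median log2 fold change of −0.47 without passing the test. Of the 32 genes of the list, 6 were called lower, all without a member, against 0.683% of all genes tested. With 5 genes, those with a member are too few to compare with the rest of the list.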

How the data were processed

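The RNA values are TPM of poly(A)-selected libraries, as deposited by the authors for each aorta, and the submitters' processing notes name STAR 2.7.8a and RSEM 1.3.3. TPM hold no depth, so no counting interval was given for RNA. For ChIP-Seq the authors used Bowtie2 for alignment and MACS2 for peak calling, and the control library is not given in the sources used here. Their methods state a q limit of 0.01 and the human genome size setting. The deposited list does not keep to that limit, as 437 of its 11271 peaks (3.88%) had a q value above 0.01. The deposited peak lists give the fold enrichment as a ratio and −log10 q, which were used as deposited. Unused were the IgG libraries and the deposited score and −log10 p.

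Peaks were placed by their centre against 31603 curated RefSeq TSSs of GRCm38.p6. Genes were matched to the TPM table by Entrez identifier (20695) or symbol (4777). Aortic groups were compared by limma (version 3.58.1, R 4.3.3), using lmFit and trended eBayes on log2(TPM + 0.1) for genes whose TPM averaged 0.5 or more, without covariates. The procedure was tested on simulated data. P values measure the spread between 3 aortas a group, taken as separate mice from the labels. Intervals are 95% exact Clopper-Pearson, whereas the share that a count of 0 allows was taken as 3 divided by the number of genes.

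The members, gene lists, motifs, and naming rule were chosen with earlier results of these data known. Named genes were those of the clock, receptor, contractile, PRDM, partner, and immediate-early lists with a member, the 10 largest rises and falls among called genes averaging 1 TPM or more whose groups did not overlap, the genes of the 10 strongest members, and up to 5 genes with the most members. Ergic1, Aebp1, and Fbxo30, and the extracellular matrix genes, fall outside it and were named after their values were seen. Alternatives covered the peak position, window, threshold, length, annotation, pseudocount, filter, scaling, variance model, replicate block, and each aorta left out. Sequences are shown for 8 of the 41 stretches that met the conditions, and a clock gene is not reported here.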

Additional observations from a re-analysis of the deposited data

How the results depend on the processing

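Counts of members moved by over 1.5 times under 2 of the alternatives tried. With q at most 1e-05 there were 962 members at 933 genes, of which 8 were called lower, and with GENCODE transcripts 2940 members at 2716 genes, of which 1436 members were shared with the 1673. Summits in place of centres gave 1698 members, with 1393 shared. Over whole peaks in place of 201-bp windows the GC box was in 71.4% of members. Without a trend in eBayes, limma called 0 genes with a member higher and 0 lower, with 46 and 121 at an unadjusted P under 0.05, and 24 and 24 over all genes. Calls were 16 higher and 26 lower after median ratio scaling, 14 and 25 after quantile normalization, and 3 and 7 with no filter on low values. Fosl2 and Lrrfip1 passed the threshold under both scalings. Leaving out each aorta in turn gave 2 to 6 higher and 5 to 15 lower, with 2 higher without Prdm16SMKO replicate 2 or control replicate 2 or 3, and 5 to 7 lower without Prdm16SMKO replicate 1 or 3 or any control. The cause was not tested. With the replicate number as a block the counts were 5 higher and 13 lower, and 4 of the 17 called genes were lost. The numbers did not pair the aortas, as deviations of same-numbered aortas correlated at −0.0246, −0.0700, and −0.00896. With a single ChIP library, depth limits the peak values to those of 1 experiment, and the TPM carry no depth.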
